A study of Mus musculus with 4 samples.

Results

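Neurog1, Neurog2, Eomes, Neurod1, Nhlh1, Tbr1, Neurod2 and Neurod6 encode the transcription factors that mark successive steps of glutamatergic neuron production in the dorsal forebrain. These 8 genes were chosen by symbol, out of 43346 features in the count tables, and all 8 were found. Levels were measured by droplet single-cell RNA sequencing (10x Genomics) of wild-type (wt) mouse forebrain at E12.5, a midgestation stage. Cortex (CTX) gave 1 library, and so did each ganglionic eminence of the ventral forebrain, which are named lateral (LGE), caudal (CGE) and medial (MGE). By the study's methods the mice were C57BL/6 and tissue was pooled over embryos. No treatment is named in the labels, whose protocol describes a sort of live DRAQ5+/DAPI- cells, whereas the methods treat the wild-type cells as unsorted. No region had a second library, so no test between regions was possible, and every interval below covers counting error only.

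In the dorsal telencephalon, radial glia that express the proneural genes Neurog1 and Neurog2 leave the ventricular zone and become intermediate progenitors, which are known by Eomes (Tbr2). Their daughters switch on Neurod1 and Nhlh1, and then Tbr1, Neurod2 and Neurod6 as postmitotic glutamatergic neurons. All but Eomes and Tbr1 are of the basic helix-loop-helix (bHLH) family, which binds DNA at the E-box, and these other two are T-box factors. The ganglionic eminences produce GABAergic neurons through the Dlx genes instead.

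After filters 3536 CTX, 4666 LGE, 4743 MGE and 3195 CGE cells were kept, with median depths of 6938 to 8243 unique molecular identifiers (UMIs). The tissue labels were checked against their markers. GABAergic cells, called from 2 or more of Gad1, Gad2, Dlx1, Dlx2, Dlx5 and Dlx6os1, made up 1.78% of CTX cells and 89.2 to 92.8% of the cells of each eminence. Pairs of libraries shared 4 to 15 barcodes. Shares of cells with a UMI are given after each cell was thinned at random to 3000 UMIs, which left 3471 CTX, 4577 LGE, 4668 MGE and 3150 CGE cells. Levels are counts-per-million (CPM) of the summed UMIs of all kept cells. The assay reads the 3′ end of transcripts, and levels are compared within a gene, not between genes.

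The 8 genes lie on 7 chromosomes of GRCm38 and are short, with 1 to 6 exons in the annotated transcript with the most exons. Neurog1 is on chromosome 13 (56250478 to 56252163, minus strand) and Neurog2 on chromosome 3 (127633135 to 127635631, plus strand). Eomes is on chromosome 9 (118478212 to 118486132, plus), Neurod1 on chromosome 2 (79452521 to 79456751, minus) and Nhlh1 on chromosome 1 (172052292 to 172057573, minus). Tbr1 is also on chromosome 2 (61802930 to 61814114, plus), Neurod2 is on chromosome 11 (98325415 to 98329648, minus) and Neurod6 on chromosome 6 (55677822 to 55681263, minus). A transcript of Cerkl on the same strand overlaps the first exon of Neurod1, and Cerkl itself held 22 UMIs in the kept CTX cells against 2521 for Neurod1. The last exon of Neurod1 overlaps an exon of Gm26755 and that of Eomes an exon of Gm33460, both on the opposite strand.

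Because all 8 genes were high in the same library, the 250 bases before each RefSeq start (GRCm38.p6) were searched on both strands for the E-box CANNTG, the letters that bHLH factors bind. It was present before Neurod1, Nhlh1, Tbr1, Neurod2 and Neurod6, and not before Neurog1, Neurog2 and Eomes, so 5 of 8 held it against 66.2% of all 32817 promoter windows. The form CAGATG (reverse CATCTG) was found before 2 of 8, Nhlh1 and Neurod2, and in 14.5% of all windows. CATATG was found before Neurod1 and Neurod2 and in 3.47% of all windows. The T-box letters TCACACC (reverse GGTGTGA) were found before none of the 8 and in 3.33% of all windows. TATATAA (reverse TTATATA) stood 29 to 31 bases before the starts of Neurog2, Eomes and Neurod1, and 3.04% of all windows held it anywhere. The stretches below are printed 5′ to 3′ in the direction of the gene, for the late genes with the most E-boxes and for both printable genes with TATATAA, without bases that GENCODE places in an exon. They are Neurod2 at chr11:98329649-98329815 (minus strand), Neurod6 at chr6:55681264-55681433 (minus), Neurog2 at chr3:127633076-127633134 (plus) and Eomes at chr9:118478129-118478188 (plus). Capitals mark CANNTG in the first and second and TATATAA in the other two.
Neurod2: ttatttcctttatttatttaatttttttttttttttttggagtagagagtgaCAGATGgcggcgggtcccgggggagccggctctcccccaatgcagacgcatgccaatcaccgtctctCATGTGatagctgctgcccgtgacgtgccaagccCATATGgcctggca
Neurod6: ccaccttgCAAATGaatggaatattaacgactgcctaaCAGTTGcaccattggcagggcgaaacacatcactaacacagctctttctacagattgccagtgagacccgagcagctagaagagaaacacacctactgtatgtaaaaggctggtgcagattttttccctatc
Neurog2: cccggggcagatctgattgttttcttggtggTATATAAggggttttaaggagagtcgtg
Eomes: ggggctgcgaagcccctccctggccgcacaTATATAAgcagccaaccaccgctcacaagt
A match describes letters only and is not evidence of binding.

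Every one of the 8 genes was highest in CTX, next in CGE, then in LGE, and lowest in MGE. The proneural gene Neurog2 was at 475.2 CPM in CTX, 21.7 in CGE, 4.14 in LGE and 0.161 in MGE. Its relative Neurog1 was at 38.65 CPM in CTX, 1.03 in CGE and 0.308 in LGE, and no UMI was found in MGE. For both genes the counting intervals of CTX, CGE and LGE did not overlap, with CTX over CGE ratios of 21.9 [20.0 to 23.9] for Neurog2 and 37.6 [25.1 to 58.9] for Neurog1. These intervals treat UMIs as independent, yet in LGE the 11 UMIs of Neurog1 came from 3 cells and 84.5% of those of Neurog2 from 10 cells. By share of thinned cells the Neurog1 intervals of LGE (0.000553 to 0.122%) and CGE (0.0894 to 0.457%) overlapped. In MGE the limit set by 3 UMIs made the CTX level of Neurog1 at least 481-fold higher.

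Eomes, the T-box gene of intermediate progenitors, was at 230.9 CPM in CTX, 9.73 in CGE, 2.16 in LGE and 0.0536 in MGE. Neurod1, which drives early neuronal differentiation, was at 84.3 CPM in CTX, 11.5 in CGE and 1.23 in LGE, with no UMI in MGE (at least 1049-fold lower than CTX). Nhlh1, a bHLH gene of newborn neurons, was at 39.65 CPM in CTX, 2.23 in CGE, 0.392 in LGE and 0.0268 in MGE. Neurod1 stood out among them for its small step between CTX and CGE, a ratio of 7.31 [6.45 to 8.32] against 23.7 [20.8 to 27.2] for Eomes and 17.8 [13.5 to 24.0] for Nhlh1.

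Tbr1, needed for the identity of early cortical neurons, was at 116.7 CPM in CTX, 16.2 in CGE, 3.50 in LGE and 0.241 in MGE. Neurod2, a bHLH factor of neuronal maturation, was at 295.3 CPM in CTX, 17.5 in CGE, 6.21 in LGE and 0.0268 in MGE. Neurod6 (Nex), a marker of glutamatergic projection neurons of the cortex, was at 501.7 CPM in CTX, 18.0 in CGE, 5.82 in LGE and 0.0268 in MGE. The CTX over CGE ratio was 7.18 [6.46 to 8.01] for Tbr1, 16.85 [15.3 to 18.7] for Neurod2 and 27.9 [25.4 to 30.9] for Neurod6. Tbr1 and Neurod1 thus had the smallest CTX over CGE ratios of the 8, and Tbr1 also had the smallest CTX over LGE ratio, 33.35 [27.9 to 40.2], in a range that reached 125.5 [69.9 to 252.2] for Neurog1.

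All 8 genes were 4-fold or more higher in CTX than in each eminence. Among genes at 20 or more CPM in either library, that background was 2.00% of 7210 genes against LGE, 2.40% of 7237 against MGE and 2.17% of 7434 against CGE. MGE held 20 UMIs of the 8 genes in all its 4743 kept cells. Of these 9 were Tbr1, in 9 separate cells, 6 were Neurog2, 2 were Eomes, and Nhlh1, Neurod2 and Neurod6 had 1 each.

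**Figure D1:**
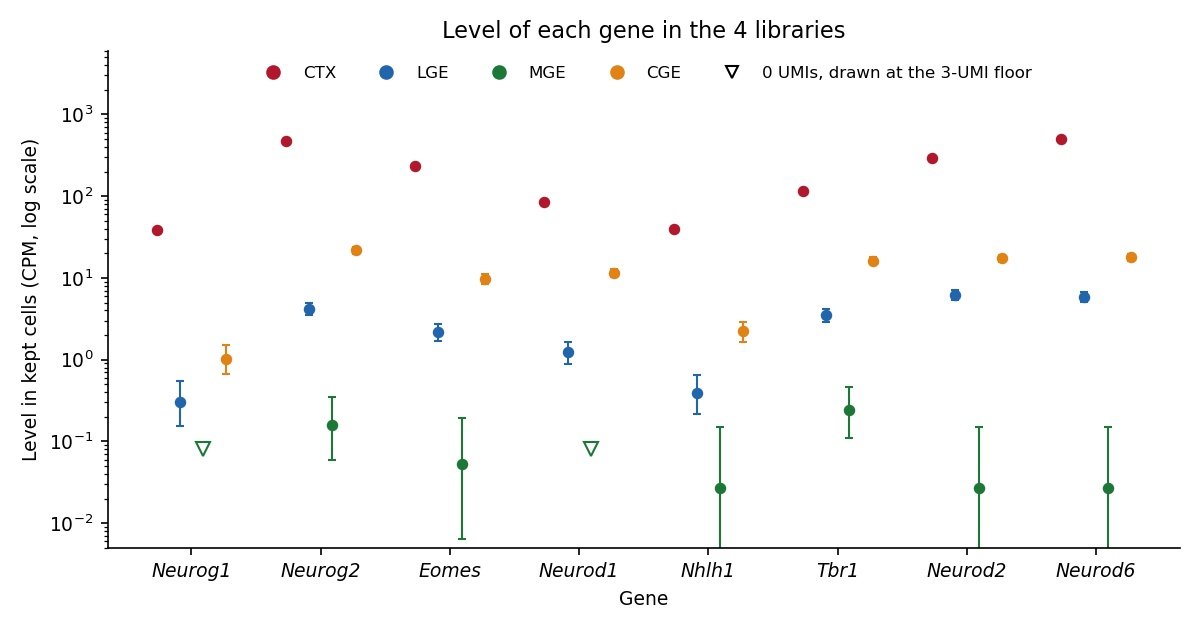
Level of each gene (CPM of summed UMIs, log axis) in the kept cells of the 4 libraries, 1 library per region. Points are the libraries, bars are exact Poisson 95% intervals (counting error only, running off the axis where the lower bound is below it), and open triangles mark 0 UMIs drawn at the 3-UMI floor. Each gene falls from CTX to CGE to LGE to MGE, and Tbr1 and Neurod1 have the smallest step from CTX to CGE, 7.18 and 7.31.

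To order CTX cells without using any of the 8 genes, cells were ranked by a maturation score, the log2 ratio of UMIs of 12 neuronal genes (Dcx, Tubb3, Mapt and others) to UMIs of 12 progenitor genes (Nes, Sox2, Hes5 and others), and cut into 10 bins of equal size. A UMI of a gene in a cell can come from free RNA, so the same shares were taken in CTX cells that should lack these genes. In the 63 GABAergic cells of CTX (median 5460 UMIs) the thinned share was 10.2% for Neurod6, 6.78% for Neurog2, 5.085% for Tbr1 and Neurod2, 3.39% for Eomes and at most 1.695% for the others. In the 59 non-neural cells (median 9482 UMIs) it was 8.62% for Neurog2 and Neurod6, 5.17% for Neurog1 and Neurod2, 3.45% for Eomes and at most 1.72% for the others. In 156 red blood cell barcodes (median 1159 UMIs outside the Hb genes) it was 5.84% for Neurog2 and 4.38% for Neurod6. Shares at or below these values are read as background.

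Neurog2 was the first of the genes along the order. It had a UMI in 25.3% [20.8 to 30.2] of the cells of bin 1, the least mature, in 53.0% of bin 5 and in 78.4% of bin 6, and fell to 13.0% in bin 10. Neurog1 was seen in 1.15% of bin 1 cells, peaked in the same bin 6 at 26.5% [21.9 to 31.5], and was found in 0 of the 347 cells of bin 10. In CPM, bin 10 held 4.075% of the peak level of Neurog2 and 1.42% of that of Neurog1. Both proneural genes were therefore highest at the middle of the order and low at its end, with Neurog2 alone well above background at its start.

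Eomes came next. Its share was 3.74% in bin 1, about that of the GABAergic cells, then 14.4% in bin 5, 59.1% in bin 6, 87.6% [83.7 to 90.9] in bin 7 and 11.2% in bin 10. Neurod1 stayed at 2.88% or less through bin 5 and reached 51.3% in bin 8. Nhlh1 had no thinned UMI in bins 1 to 3, reached 29.7% in bin 8 and was still at 13.5% in bin 10. Eomes peaked 1 bin before Neurod1 and Nhlh1, which shared their peak bin, and what was left of their peak CPM in bin 10 was 6.86% for Eomes, 21.6% for Neurod1 and 37.55% for Nhlh1.

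Neurod6 had a share of 4.32 to 6.05% in bins 1 to 5, within the background of the GABAergic cells, and then rose over a short stretch, to 31.7% in bin 6, 83.0% in bin 7 and 95.4% in bin 8. Neurod2 was at 7.49% in bin 5, 37.75% in bin 6, 74.1% in bin 7 and 83.3% in bin 8. Tbr1 was the last of the 8, at 6.63% in bin 6, 28.5% in bin 7, 48.7% in bin 8 and 59.9% in bin 9. None of these late genes was lost at the end of the order: bin 10 held 86.4% of the peak CPM of Neurod2 and 99.7% of that of Neurod6, and for Tbr1 it was the peak.

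Ranked by the median position of the cells with a UMI, as a percentile of the score, the genes lay at 52.5 (Neurog2), 56.6 (Neurog1), 64.6 (Eomes), 73.2 (Neurod1), 76.3 (Neurod2), 76.6 (Neurod6), 77.5 (Nhlh1) and 82.6 (Tbr1). The quartiles of these cells were 33.15 to 65.4 for Neurog2 and 72.2 to 91.1 for Tbr1, and these ranges did not overlap. Neurod1, Neurod2, Neurod6 and Nhlh1 had quartiles of 64.7 to 69.5 and 82.15 to 87.35 and are not separable in this order. Btg2, which marks neurogenic divisions and was not in the score, was at 233.1 CPM in cells with Neurog2, 405.3 in cells with Neurog1, 273.0 in cells with Eomes, 168.8 in cells with Neurod1 and 82.1 in cells with Tbr1. Its level was highest with Neurog1, not with the gene earliest in the order.

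**Figure D2:**
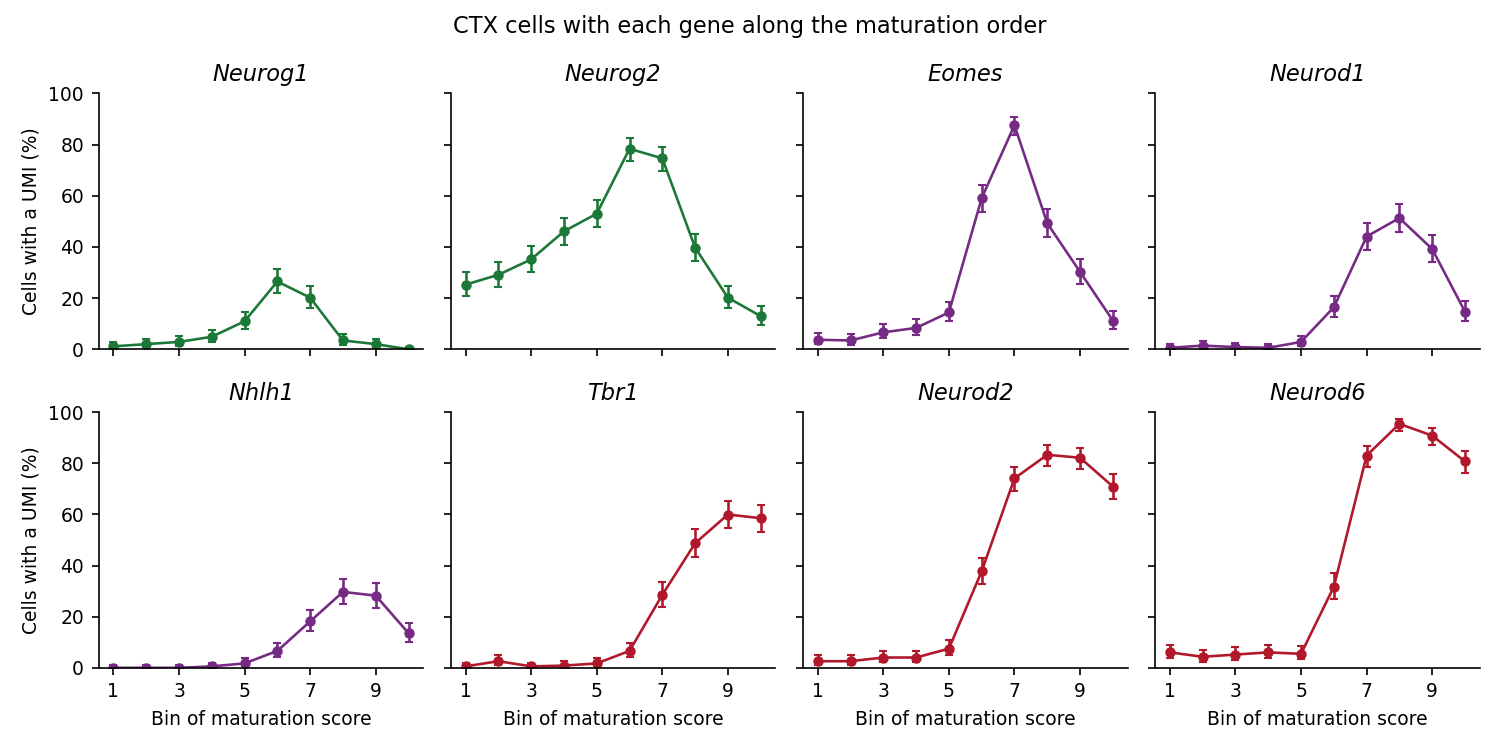
Share of CTX cells with a UMI of each gene (%, cells thinned to 3000 UMIs) in the 10 bins of the maturation score, from least mature (1) to most mature (10), 347 or 348 cells a bin. Bars are exact Clopper-Pearson 95% intervals and colours mark proneural (green), intermediate (purple) and late (red) genes. The proneural genes peak in bin 6 and Eomes in bin 7, and Neurod2, Neurod6 and Tbr1 stay high to bin 10.

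Each CTX cell was then placed by the latest group of genes it held. Of 3471 cells, 30.65% [29.1 to 32.2] held none of the 8, 16.45% held only proneural genes, 5.19% reached an intermediate gene and 47.7% [46.0 to 49.4] a late gene. The radial glial gene Nes, a score gene, was at 365.7, 333.7, 214.7 and 85.1 CPM over these 4 classes, and Dcx at 36.0, 7.68, 26.1 and 341.4. Pax6, a transcription factor of cortical progenitors that the score did not use, was at 284.4, 302.6, 247.9 and 75.3 CPM. The cells with only proneural genes were thus close to those with none in Nes and Pax6, but their Btg2 level was 142.1 against 53.8 CPM. The class with none also held 49 of the 59 GABAergic and 46 of the 58 non-neural cells that had 3000 UMIs. The late class held 6 of each. A class needs only 1 UMI and no background was taken off, so the shares of cells with a gene include background.

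The groups overlapped in single cells more often than they stood alone. A UMI of all 3 groups was found in 622 cells (17.9%), of an intermediate and a late gene in 429, of a late gene alone in 490, and of a proneural and an intermediate gene in 148. Only 32 cells (0.922%) held an intermediate gene alone, at a median score percentile of 22.3 with 607.1 CPM of the radial glial gene Hes5. Cells with proneural and intermediate genes were at 48.95 and 237.7 CPM. The share of these 32 cells is below the 3.39% of GABAergic cells with Eomes, so they cannot be told apart from background. Slc17a6, the vesicular glutamate transporter VGLUT2, was at 144.6 CPM in cells with intermediate and late genes, 126.0 in cells with all 3 groups and 20.1 in cells with late genes alone. In that last class Mapt, a neuronal score gene, was at 463.1 CPM against 130.9 and 13.5 in the other two. Of single patterns, Neurog2 alone was found in 530 cells, Tbr1 with Neurod2 and Neurod6 in 204, and Neurod2 with Neurod6 in 131. One cell held all 8 genes.

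**Figure D3:**
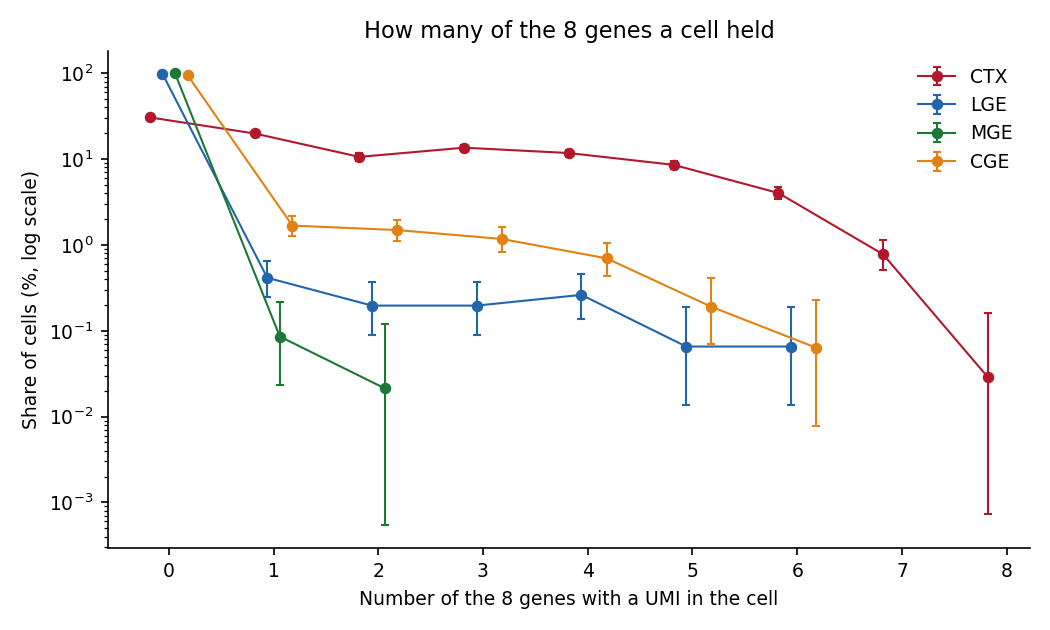
Share of cells (%, log axis) by the number of the 8 genes with a UMI, in cells thinned to 3000 UMIs, for each library. Points are shares with exact Clopper-Pearson 95% intervals and counts with no cell are not drawn. CTX cells spread up to 8 genes, 38.8% of them with 3 or more, and MGE cells held at most 2.

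Co-detection was compared with the number of cells expected if a pair of genes were found independently. This was done first over all CTX cells and then summed over the 10 bins, which takes out the shared place along the score only in part. Shares changed steeply between neighbouring bins, such as Tbr1 from 6.63% in bin 6 to 28.5% in bin 7, and bin 7 spans scores of 0.322 to 2.41. The part of order inside bins in the within-bin ratios was not tested. All 28 pairs come from 1 library and the same cells, and are given as descriptions. Over all cells 14 pairs were at 2 or more times the expected number, and within bins the ratios ranged from 0.323 to 1.50. The number of cells with the rarer gene in each bin caps the within-bin ratio, and 18 of the 28 pairs, 10 of those 14 included, could not reach 2.

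Neurog1 cells were nearly a subset of Neurog2 cells. Of 257 cells with Neurog1, 93.4% also held Neurog2 and 77.0% Eomes, whereas 16.7% of the 1439 Neurog2 cells held Neurog1. Within bins these pairs had the highest ratios of the 28, 1.45 [1.28 to 1.64] for Neurog1 with Neurog2 and 1.50 [1.31 to 1.72] for Neurog1 with Eomes, where the bins allowed at most 1.56 and 1.95.

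Neurog1 and Tbr1 had the lowest ratio. They were found together in 12 cells, where 53.6 were expected over all cells (ratio 0.224) and 37.2 within bins (ratio 0.323 [0.167 to 0.563]). Neurog2 and Tbr1, in contrast, shared 226 cells, 0.958 [0.841 to 1.09] of the number expected within bins. When 2 or more UMIs of both genes were required in unthinned cells, Neurog1 and Tbr1 shared 4 cells, 0.124 of the number expected within bins. Neurod2, also a late gene, was found in 46.7% of Neurog1 cells, 1.13 times the within-bin expectation, so the low ratio did not extend to all late genes.

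Neurod1 and Nhlh1 had the highest ratio over all cells, 2.94, which was 1.33 [1.15 to 1.54] within bins. Eomes with Neurod1 was at 2.52 and 1.35 [1.23 to 1.48]. Of Neurod1 cells 92.3% held Neurod6, as did 90.2% of Tbr1 cells and 85.3% of Neurod2 cells, with within-bin ratios of 1.08 to 1.15. The highest ratios that the bins allowed for these 3 pairs were 1.20 to 1.26, so there was little room above the expected number.

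**Figure D4:**
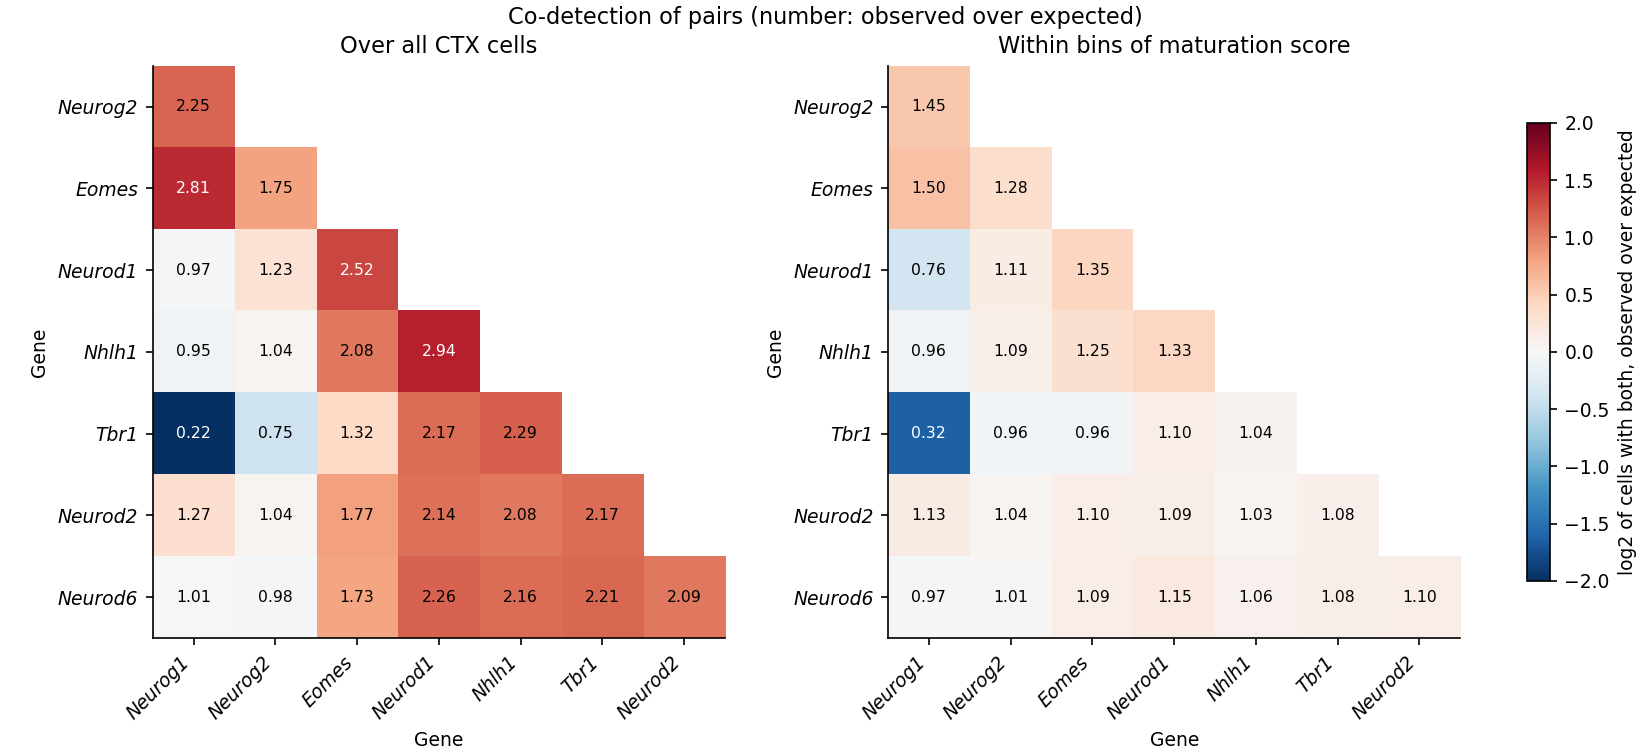
Cells with both genes of a pair, observed over expected, in 3471 CTX cells thinned to 3000 UMIs, over all cells (left) and within the 10 bins of the score (right). The numbers are the ratios and the colour is their log2. Neurog1 with Tbr1 is the lowest in both panels (0.22 and 0.32), and Neurog1 with Eomes the highest within bins (1.50).

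Cajal-Retzius cells, the early Reln neurons of the cortical surface, used part of the set. The 41 CTX cells with 3 or more of Reln, Trp73, Lhx1, Lhx5 and Ndnf had Tbr1 at 641.1 CPM with a UMI in 97.6% of them, and Nhlh1 at 114.8 CPM in 51.2%. Neurod6 and Neurod1 had a UMI in 7.32% each, and Neurod2 in 43.9% (89.6 CPM), at a median depth of 8420 UMIs. In the 63 GABAergic cells at their own depth Neurod6 was seen in 14.3%, so the Neurod6 share of Cajal-Retzius cells is not above background, while their Tbr1 and Nhlh1 levels compare with 116.7 and 39.65 CPM in the whole library.

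The study's own gates on Nes and Dcx (ln(1 + UMIs per 10000) above 1.5) gave 894 high-Nestin and 801 high-Dcx cells in CTX. From high-Nestin to high-Dcx cells Neurog1 went from 15.3 to 8.87 CPM and Neurog2 from 305.4 to 209.2 CPM, ratios of 0.580 [0.418 to 0.799] and 0.685 [0.641 to 0.732]. Eomes went from 53.2 to 320.2 CPM (ratio 6.02). The other 5 were 15.0 (Nhlh1) to 27.3 (Neurod6) times higher in high-Dcx cells. So 6 of 8 were 2-fold or more higher and none was 2-fold or more lower, against 15.9% and 18.3% of 12502 genes. Of the 17 CTX cells that met the gate for dividing Dcx cells, 15 had 3000 UMIs, and 86.7% of these held Eomes, 93.3% Neurod2 and 93.3% Neurod6. Neurog1 was found in 0 of the 15 after thinning, with 4 UMIs in the 17 cells before it.

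Genes that followed each member most closely over the 3471 CTX cells are given by Pearson r of ln(1 + UMIs per 10000) among 3559 genes, without the members. The cells share 1 library and differ in depth and maturity, and no p-value is attached. Gadd45g, a growth-arrest gene, was first for Neurog2 (r = 0.716) and Neurog1 (0.637), each followed by Hes6 and Btg2. Eomes was followed by Igsf8 (0.726), the Notch-modifying enzyme Mfng (0.694) and the somatostatin receptor Sstr2 (0.662). Neurod1 was followed by the matrix gene Mfap4 (0.649), Sstr2 (0.644) and the semaphorin receptor Nrp1 (0.622), and Nhlh1 by Mfap4 (0.503), the cell-cycle inhibitor Cdkn1c (0.494) and the kinesin Kif21b (0.485). Rnd2, a small GTPase of migrating neurons, was first for both Neurod6 (0.818) and Neurod2 (0.806), followed by Tubb3 and Tagln3 for the former and Sox11 and Tubb3 for the latter. Tbr1 was followed by Rtn1 (0.717), the layer 5 factor Bcl11b (0.702) and the cannabinoid receptor Cnr1 (0.699).

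Other genes of the pathway were compared between CTX cells with a late gene (1656) and CTX cells with none of the 8 (1064), as CPM of summed UMIs. Over 13492 genes with 20 or more UMIs, 11.5% were 2-fold or more higher and 16.3% 2-fold or more lower in cells with a late gene, and the median log2 ratio was -0.12. Among Notch ligands and effectors of proneural factors 9 of 10 were higher and none lower (median log2 ratio 3.81). Cells with a late gene include those that also hold proneural genes, such as the 622 with all 3 groups. Btg2, a gene of this list, was at 297.1 CPM in those 622, 25.1 in cells with late genes alone and 53.8 in cells with none. The other genes of the list were not split in this way. The Notch ligands Dll3 and Dll1 were at 81.3 against 0.864 CPM and 75.6 against 4.00 CPM, Rnd2 at 878.7 against 32.7 and Gadd45g at 349.4 against 19.2, and the ligand Jag1 at 2.92 against 3.56. Of 12 other neurogenic bHLH genes and their partners 5 were higher and 4 lower. Neurod4, Bhlhe22, Nhlh2 and Id2 were 27.1, 24.9, 13.0 and 11.3 times higher, and the ubiquitous partners Tcf4 and Tcf12 had ratios of 1.045 and 0.866.

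Of 18 glutamatergic projection neuron genes 10 were higher and 2 lower in cells with a late gene. Slc17a6 was at 90.5 against 1.84 CPM, the netrin receptor gene Unc5d at 34.5 against 0.864, Slc17a7 (VGLUT1) at 61.0 against 1.73 and Bcl11b at 701.4 against 52.5. Foxp2 and Lhx2 had ratios of 1.10 and 0.874. All 10 GABAergic genes were lower, with Slc32a1, the vesicular GABA transporter, at 0.626 against 12.3 CPM and Sp9 at 0.7655 against 14.15. The class with none holds most GABAergic cells of the library, as counted above, and their part in this list was not tested. Of 5 countable thalamic or non-telencephalic genes 4 were higher, Lhx9 (14.1-fold), Lhx1, Lhx5 and Barhl2, and Tcf7l2 was lower, at 6.54 against 39.1 CPM. Lhx1 and Lhx5 are also genes of the Cajal-Retzius call, and Lhx9 is also in the ventral pallium list. Of 8 ventral pallium genes 2 were higher and 4 lower, Lhx9 and Ebf3 (4.77-fold) against Sfrp2, Nr4a2, Etv1 and Zic1.

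In the eminences the genes were concentrated in few cells. In LGE 55 cells of 4577 (1.20%) held any of the 8, and 27 (0.590% [0.389 to 0.857]) held 3 or more. These 27 carried 63.0% of the 849 UMIs of the set. In CGE 167 cells of 3150 (5.30%) held any and 67 (2.13% [1.65 to 2.69]) held 3 or more, with 55.25% of the 2275 UMIs of the set. Both shares of cells with 3 or more depend on the UMIs required: with 2 or more UMIs of each gene they were 0.284% in LGE and 0.3492% in CGE, and without thinning the CGE share was 3.38%. In MGE 5 cells of 4668 held any and 0 held 3 or more. A limit of 3 cells is a share of 0.0643% there, and the exact interval reaches 0.079%. Red blood cell barcodes of LGE (59) and MGE (53) had no UMI of the set, and the 17 of CGE had 1, of Neurod2. Non-neural cells held Eomes in 2 of 18 in CGE and 1 of 36 in MGE, and no other gene of the set. These few barcodes alone leave the level of free RNA in the eminences poorly known. The GABAergic cells, the background used in CTX, were far more numerous: 4210 in LGE, 4400 in MGE and 2848 in CGE. Their highest thinned share of any of the 8 was that of Tbr1, at 0.121% in LGE, 0.0462% in MGE and 0.498% in CGE.

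Cells with 3 or more of the genes looked unlike the rest of their libraries. At full depth, 73.1% of the 67 CGE cells (median 7902 UMIs) held Slc17a6 and 14.9% Gad2, against 0.235% and 78.8% of the 2983 CGE cells with none of the 8 (6931 UMIs). Of the 27 LGE cells (5762 UMIs) 55.6% held Slc17a6 and 11.1% Gad2, against 0 of 4522 cells (a limit of 3 cells is 0.0663%) and 77.2% (7150 UMIs). The dorsal gene Emx1 was at 96.7 CPM in the 67 CGE cells and 79.85 CPM in the 27 LGE cells, against 242.2 CPM in the 1347 CTX cells with 3 or more. Of the 11 thalamic and other non-telencephalic genes, Tcf7l2, Gbx2, Foxb1, Irx1 and Irx2 had no UMI in either. Others of the list were present: Lhx9 was at 223.2 CPM in the CGE, 182.5 in the LGE and 96.5 in the CTX cells, and Barhl2 at 27.9, 45.6 and 0.3485. In the CGE cells Lhx1 was at 37.2 CPM and Sim1 at 26.0, against 1.05 and 0.0871 in CTX and no UMI in LGE. Lhx5 held 2 UMIs in CGE and Otx2 1 each in CGE and LGE. In CGE 6 of the 67 met the GABAergic and 3 the Cajal-Retzius call.

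The mix of genes in the summed UMIs differed between libraries. The intervals treat UMIs as independent, yet 10 cells carried 84.5% of the LGE and 64.1% of the CGE UMIs of Neurog2. For Tbr1 this was 60% in LGE and 23.5% in CGE, so few cells can set these shares. Of all UMIs of the 8 genes, Tbr1 made up 6.55% [6.34 to 6.76] in CTX, 14.7% [12.4 to 17.3] in LGE and 16.6% [15.1 to 18.2] in CGE. Neurod1 made up 4.73% in CTX, 5.18% in LGE and 11.8% [10.5 to 13.2] in CGE. Neurod2 made up 16.6% in CTX, 26.15% in LGE and 17.9% in CGE. Shares below those of CTX were found for Neurod6 (28.15% in CTX, 24.5% in LGE, 18.3% in CGE), Neurog2 (26.7%, 17.4% and 22.2%), Eomes (13.0%, 9.07% and 9.93%) and Neurog1 (2.17%, 1.296% and 1.05%), with overlapping intervals of CTX and LGE for Neurog1. Nhlh1 was at 2.225%, 1.65% and 2.275%.

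Neurons with Slc17a6 were then compared between regions. They were chosen without the 8 genes, as cells with a UMI of Slc17a6, high Dcx and neither the GABAergic nor the Cajal-Retzius call. This gave 321 cells in CTX (median 7839 UMIs), 74 in CGE (8096) and 14 in LGE (5960). In CTX Slc17a6 itself changed along the order, from a peak of 155.4 CPM in bin 8 to 28.3 in bin 10. The choice thus weighs the CTX side towards part of the order, and 72.1% of the chosen CTX cells held Eomes after thinning. Its part in the ratios below was not tested. In CGE Tbr1 was at 363.4 CPM against 246.2 in CTX, a ratio of 1.48 [1.26 to 1.72]. The other 7 were lower in CGE, Eomes the most, at 93.7 against 654.9 CPM (ratio 0.143 [0.108 to 0.186]). Neurod6 was at 501.5 against 1263 CPM (ratio 0.397 [0.352 to 0.4465]), Nhlh1 at 51.0 against 139.4 (0.366), and Neurod2, Neurog2 and Neurod1 had ratios of 0.575, 0.566 and 0.645. Neurog1 rested on 3 UMIs in CGE, with a ratio of 0.302 [0.0599 to 0.943]. None of the 8 was 2-fold or more higher and 4 were 2-fold or more lower, Neurog1, Eomes, Nhlh1 and Neurod6, against 10.5% and 10.9% of 9387 genes. By share of thinned cells, Neurod6 was found in 63.5% of the CGE and 97.2% of the CTX cells, and Tbr1 in 62.2% and 51.4%. In the 14 LGE cells Tbr1 was at 411.6 CPM (ratio to CTX 1.67 [1.17 to 2.33]), Neurod2 at 1190 (1.69 [1.37 to 2.05]) and Eomes at 133.5 (0.204 [0.105 to 0.357]). Lower Eomes and higher Tbr1 than in CTX were thus measured in both eminences.

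**Figure D5:**
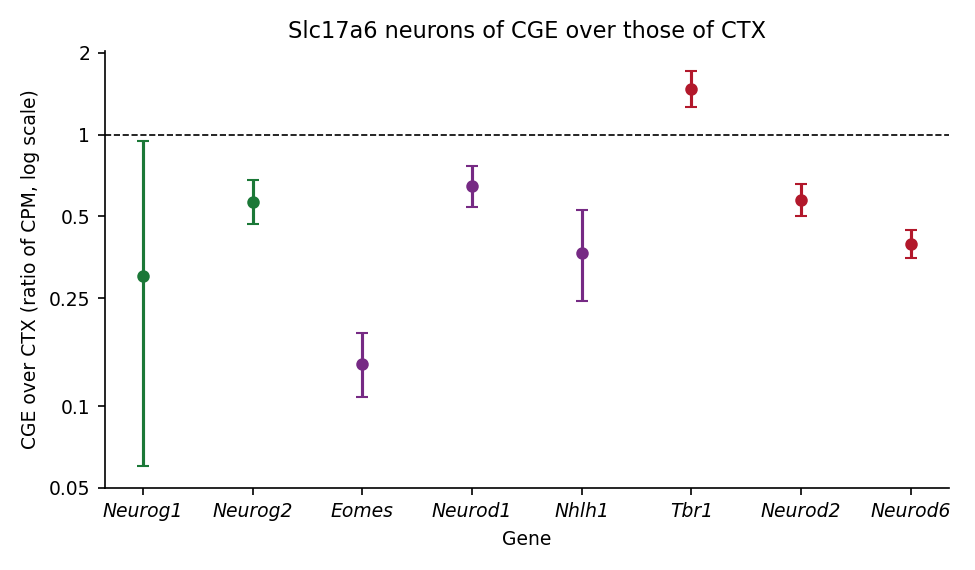
Ratio of CPM, CGE over CTX (log axis), for each gene in Slc17a6 neurons, 74 cells of CGE and 321 of CTX, 1 library each. Bars are exact Poisson 95% intervals (counting error only) and the dashed line marks a ratio of 1. Tbr1 lies above 1 (1.48) and Eomes is the lowest (0.143), in cells not matched in maturation.

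These CGE and CTX cells were not matched in maturation. Of 12 neuronal score genes 7 were 2-fold or more higher in CGE and none lower, with Mapt at 618.2 CPM in CGE and 17.1 in CTX, Ina at 772.7 and 78.25 and Stmn2 at 1317 and 139.0. Of 9 countable progenitor score genes 3 were lower and 1 higher, with the cycling genes Mki67 at 29.6 against 169.8 CPM and Top2a at 88.8 against 344.5, and Ccnd1 at 49.3 against 20.5. The part of this difference in the ratios above was not tested. Of 9 countable Notch ligands and effectors 8 were 2-fold or more lower in CGE and none higher, such as Cdkn1c (ratio 0.151) and Gadd45g (0.2475). Of 18 glutamatergic projection neuron genes 2 were higher, Cux2 (2.11) and Mef2c (2.765), and 10 lower, with Nfib at 343.6 against 3474 CPM, Lhx2 at 144.7 against 1060 and Slc17a7 at 3.29 against 80.9 CPM. The bHLH gene Nhlh2 was at 271.3 against 97.25 CPM. Of 6 countable ventral pallium genes 1 was higher, Ebf3 at 83.85 against 1.52 CPM, and 1 lower, Nr4a2 with 0 against 55 UMIs. Among the other 4, Lhx9 was at 230.2 against 150.4 CPM, Meis2 at 351.8 against 569.8 and Sfrp2 at 8.22 against 8.36, and Zic1 had 0 against 24 UMIs. Of 3 countable thalamic and other non-telencephalic genes 2 were higher and none lower, Sim1 with 36 against 0 UMIs and Barhl2 with 23 against 2. Named here after their values were seen, Nfib, Cux2, Mef2c, Nhlh2, Sim1, Barhl2, Mapt, Ina, Stmn2, Mki67, Top2a and Ccnd1 fall outside the rule for named genes.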

How the data were processed

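Single-cell libraries from CTX, LGE, MGE and CGE of wild-type E12.5 embryos were used, 1 library per region, grouped by the labels' region. The deposited files hold raw UMI counts per gene and barcode, which the authors obtained by aligning reads to mm10. The file headers give the software as Cell Ranger 3.0.2 and the submitters' processing notes as 3.0.0. The annotation release is not given in the sources used here. Every deposited barcode held at least 500 UMIs, and total UMIs per library were 31451467 to 49794765.

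Cells with more than 1500 and fewer than 4500 genes, under 5% mitochondrial UMIs and under 1% Hbb UMIs were kept. These limits are a reading of the study's filters: the mitochondrial and Hbb percentages it prints are lower, and its methods also name median absolute deviations. Predicted doublets were removed by a nearest-neighbour comparison with simulated doublets, rebuilt here and not the study's own run. It marked 127 to 289 barcodes a library, of which 53 to 144 had passed the other filters. The gene minimum removed 40.4% of CTX barcodes and 14.3 to 22.6% of the others. Counts were summed over cells for CPM. Ratios carry exact Poisson intervals and shares exact Clopper-Pearson 95% intervals, a library at 0 was set to 3 UMIs, and no test was run because each region is 1 library. Thinning was seeded. Gene positions are from GENCODE M21.

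The 8 genes and all lists were chosen with earlier results of these data known. Named genes were all members, the 3 genes with the highest correlation with each (at 50 or more CPM), up to 4 genes of each list with the largest and 2 with the smallest change, and the listed genes compared in eminence cells with 3 or more members. Some genes that this rule names are not reported here. Fold calls, intervals and the ordering were tested on simulated data. Alternatives changed the thinning, the filters, the UMIs required, the number of bins, the score and the pseudocount. Python 3.11, numpy 2.4.6, scipy 1.17.1, pandas 2.3.3, scikit-learn 1.9.0 and matplotlib 3.10.9 were used.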

Additional observations from a re-analysis of the deposited data

Results flagged for a closer look

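Barcodes below the gene minimum take part in none of the comparisons above, and the genes were present in them. In the 1858 CTX barcodes that failed only this limit (median 872 UMIs), the levels were 25.8 CPM for Neurog1, 298.1 for Neurog2, 131 for Eomes, 61.51 for Neurod1, 39.19 for Nhlh1, 107.6 for Tbr1, 241.1 for Neurod2 and 437.5 for Neurod6. The same barcodes of the eminences held at most 20.8 CPM of any of the 8. What these barcodes hold was not tested.

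Eomes differed in opposite directions between high-Nestin and high-Dcx cells of 2 regions. From high-Nestin to high-Dcx cells its ratio was 6.023 in CTX (53.2 to 320.2 CPM) and 0.3041 in CGE (15.6 to 4.74 CPM, 25 and 75 UMIs). In LGE it was 1.86 [0.934 to 4.12], on 10 and 50 UMIs. The gates do not hold the same cell types in both regions: 89.2% of CGE cells were GABAergic, against 1.78% of CTX cells. In the 74 high-Dcx CGE cells chosen by Slc17a6, Eomes was at 93.7 CPM, on 57 UMIs. The CGE values rest on 4 of 175 high-Nestin and 14 of 2250 high-Dcx cells after thinning, and 10 cells carried 59.9% of all Eomes UMIs of the CGE library. With 1 library per region this difference was not tested, nor was the part of cell type in it.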

How the results depend on the processing

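Recomputed under each alternative, the main values stayed within the limits set for a change in 81 instances and moved in 19. Without thinning, 82.72% of CTX cells held 1 or more of the genes, and the classes were 17.28% none, 20.53% proneural and 56.33% late. CGE cells with 3 or more were then 3.38%, and 5 pairs instead of 14 reached 2 times the expected co-detection. Thinned to 5000 UMIs, the CTX values were 76.22% with 1 or more, 23.78% none, 18.82% proneural and 52.0% late, and CGE cells with 3 or more were 3.194%. With 2 or more UMIs required they were 55.11%, 44.89%, 11.26% and 38.23%, and cells with 3 or more were 0.284% in LGE and 0.3492% in CGE. Leaving out non-neural, GABAergic and Cajal-Retzius cells gave 70.88% with 1 or more and 29.12% with none. These shares move with the UMIs read per cell by construction. All 8 genes stayed 4-fold or more higher in CTX, and all 8 kept a median above the middle of the order, under every alternative run for them. That no pair reached 2 times the expected number within bins says nothing of stability, since most pairs could not. Of the shares of single genes, 59 moved and 165 did not. No paired analysis was possible because each region is 1 library, and for the same reason no replicate could be left out. Region, library and dissection cannot be told apart. The 27 LGE, 67 CGE and 14 LGE Slc17a6 cells limit the precision of what is said of them, and levels of Neurog1 in CGE rest on 24 UMIs.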
